A study of Bos grunniens with 6 samples.

Results

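The genes described here make and run the protein synthesis machinery: translation initiation, elongation and release factors, cytoplasmic poly(A)-binding proteins, La-related proteins, aminoacyl-tRNA synthetases, cytosolic ribosomal proteins and the factors that assemble ribosomes. They were taken by gene symbol from the list of m6A peaks of cattle-yak testis, without use of any measured value other than the presence of a peak. The symbols cover 98 of the 8986 gene identifiers with a peak and 173 of the 16186 peaks, under 90 different symbols. The symbol rule also took in mitochondrial synthetases and a few kinases, methyltransferases and binding proteins that act on translation factors, which are kept apart below. A gene without a peak carries no symbol in the deposited tables, so its level is not known here.

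The tissue was testis removed by castration from 3 cattle-yaks, hybrids of yak and cattle whose males are sterile. All were 5 years old and untreated, the samples form a single group, and the animals are named TES5, TES6 and TES7. Each animal gave an m6A immunoprecipitation (IP) library, made from RNA fragments bound by an anti-m6A antibody, and an input library of the same poly(A) RNA before the pull-down. The deposited peak list is 1 for the group, with no score and no value per animal, so no error between animals can be given for a peak. Levels are FPKM in the input libraries (fragments scaled to gene length and library size), which may be compared between genes, and the sequencing depth behind them is not known from these tables. In bulk tissue, fewer cells of a type and less RNA per cell cannot be told apart.

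The testis label was checked with markers that carry a peak and therefore a symbol. The Sertoli cell genes *SOX9* and *WT1* stood at mean FPKM 27.5 ± 0.807 and 29.6 ± 4.94 (SD, n = 3), the Leydig cell gene *STAR* at 107 ± 5.95, and the smooth muscle gene *ACTA2* of peritubular cells at 237 ± 14.7. Of the spermatogonial genes, *KIT* stood at 8.64, 9.23 and 12.2 in the 3 animals, *ZBTB16* at a mean of 8.85 ± 2.29 and *GFRA1* at 0.790 ± 0.193. The spermatocyte genes *SYCP3* and *SYCP1* stood at 20.7 ± 3.30 and 5.44 ± 1.10. *DMC1* has 3 identifiers, and the highest of them stood at 15.2 ± 6.36. Of the markers chosen, those listed with a peak were 2 of 5 for Sertoli cells, 1 of 5 for Leydig cells and 3 of 3 for peritubular cells. For spermatogonia and for spermatocytes the count was 3 of 5 each, and for spermatids 0 of 5. The level of the markers not listed could not be looked up.

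Translation starts when the EIF4F complex (the cap-binding EIF4E, the scaffold EIF4G and the helicase EIF4A) meets a small ribosomal subunit that carries EIF3 and the EIF2-bound initiator tRNA. Elongation factors then deliver tRNAs charged by the synthetases, and the release factors ETF1 and GSPT1 end the chain. In the male germ line many mRNAs are stored and translated later, and m6A is known as a mark that can alter the stability and translation of an mRNA. No sequence is printed, since a genome of the build used by the authors was not used here.

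Ribosomal protein genes were seldom on the peak list, whereas most other translation genes were on it. RefSeq names 212 protein-coding yak symbols that match the same rule, and 88 of these (41.5%) carried a listed peak, against 45.2% of all 16457 RefSeq symbols. Among cytosolic ribosomal proteins the count was 9 of 79 (11.4%, Wilson 95% interval 6.11% to 20.3%), with 6 of 48 from the large subunit and 3 of 31 from the small subunit. For the remaining symbols it was 79 of 133 (59.4%, 50.9% to 67.4%). The 45.2% takes in genes at any level. Of all genes with a mean FPKM of 1 to under 50 in the input, 67.5% carried a peak. Beside that base of expressed genes, 59.4% was not a high share. The intervals cover counting error only, since genes are not replicates, and no test between groups of genes was made.

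The RefSeq names come from another assembly (Bosgru_T2T1.0) than the peaks, so a symbol that is missing from the list may be a gene without a peak or one that the older annotation does not name. The level of the input RNA moved with the same count. Over all 20953 genes with an FPKM, 41.9% carried a peak. The share was 9.65% below a mean FPKM of 1, 67.5% from 10 to under 50, 48.6% from 50 to under 100, 32.3% (27.6% to 37.4%) from 100 to under 500, and 15.4% (8.01% to 27.5%) of the 52 genes at 500 or more. Of the 9 ribosomal protein genes with a peak, 7 stood above an FPKM of 50. The level of the other 70 is not known here, and the part of the level in their low count was not tested. Ribosomal protein genes also have many near-identical copies in the genome, reads without a unique place were dropped by the authors, and the part of this in their count was not tested.

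**Figure D1:**
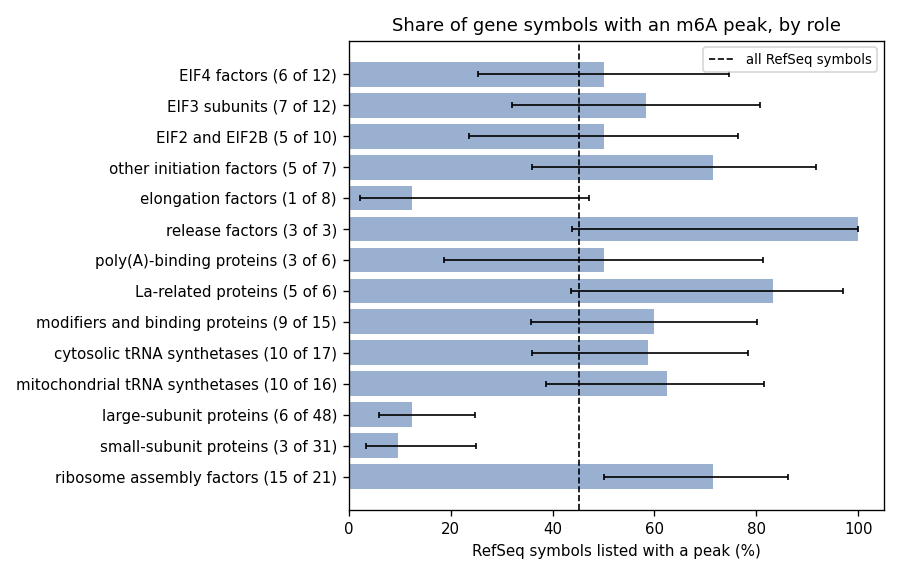
Bars give the percentage of RefSeq protein-coding symbols in each role that are listed with at least 1 m6A peak, with Wilson 95% intervals as lines and the counts in brackets; the dashed line marks the 45.2% of all RefSeq symbols. The large-subunit and small-subunit proteins (12.5% and 9.68%) and the elongation factors (12.5%) are the shortest bars, and the intervals of the ribosomal proteins end below the dashed line.

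**Figure D2:**
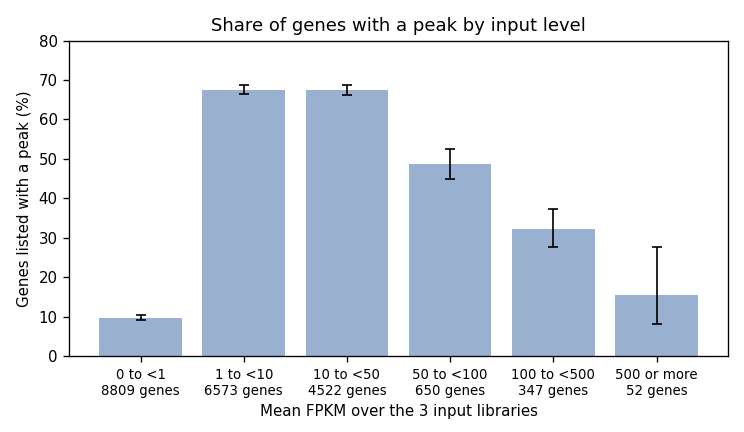
Bars give the percentage of genes listed with a peak (y axis) in 6 classes of mean FPKM over the 3 input libraries (x axis, with the number of genes), with Wilson 95% intervals. The bars stand at 67.5% in both classes from 1 to under 50 and are lower in each class above, down to 15.4% at an FPKM of 500 or more.

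By step of translation the counts were small, and no test between steps was made. Among the elongation factors, which include the most abundant factors of translation, 1 of 8 symbols was listed, *EEF1A2*, while *EEF1A1*, *EEF1B2*, *EEF1D*, *EEF1G*, *EEF2*, *EIF5A* and *EIF5A2* were not. The release factors *ETF1*, *GSPT1* and *GSPT2* were all listed (3 of 3). Among initiation factors 23 of 41 symbols were listed (56.1%, 41.0% to 70.1%), with 7 of 12 for EIF3, 6 of 12 for EIF4, 5 of 10 for EIF2 with EIF2B, and 5 of 7 for the rest. Within these families the subunits differed. None of the 3 EIF2 subunits (*EIF2S1*, *EIF2S2*, *EIF2S3*) was listed, whereas 4 of the 5 subunits of its exchange factor EIF2B were, all but *EIF2B1*. All 3 EIF4G scaffolds (*EIF4G1*, *EIF4G2*, *EIF4G3*) were listed. Most ribosome assembly factors were listed, 15 of 21 (71.4%, 50.0% to 86.2%), as were 20 of 33 synthetases (60.6%, 43.7% to 75.3%). Of the intervals for these families, all but that of the assembly factors include the 45.2% of all symbols. The interval of the assembly factors includes the 67.5% found over all genes with a mean FPKM of 1 to under 50.

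Members had about as many peaks each as other genes. Of the 98 identifiers, 53 carried a single peak (54.1%, 44.2% to 63.6%), against 54.0% of all identifiers with a peak, and 31 carried 2, 8 carried 3 and 6 carried at least 4. The peaks came to 1.77 per identifier, against 1.80 over all. The exon class held 121 peaks (69.9%, 62.7% to 76.3%), against 70.3% of all peaks. A 3' UTR was the class of 39 (22.5%, 17.0% to 29.3%), against 20.8%, and a 5' UTR that of 13 (7.51%, 4.44% to 12.4%), against 8.82%. Each share over all peaks lay within the interval of the members. A 3' UTR peak was found on 33 of the 98 identifiers (33.7%), against 32.1% of all.

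The peaks of these genes were wider than peaks in general. The listed width is the span on the genome, introns included. The median was 1488 bp (quartiles 517 and 5147 bp), against 1022 bp (299 and 4913 bp) over all peaks. Peaks of at most 1000 bp made up 40.5% (33.4% to 47.9%), against 49.8%. At the other end, 19 member peaks (11.0%) were over 10000 bp wide, against 14.4% of all. Several peaks share a gene, which the interval does not take into account.

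The exon that a peak is assigned to differed from the whole list for the last exon, and for exon 1 only at the edge of its interval. Among exon class peaks on transcripts with at least 3 exons, 21 of 113 on the members were assigned to exon 1 (18.6%, 12.5% to 26.7%), against 12.5% over all, and 5 of 113 to the last exon (4.42%, 1.90% to 9.94%), against 11.6%. The lower bound for exon 1, 12.5%, equals the share over all peaks after rounding. Among the 21 are 2 *RIOK1* peaks assigned to exon 1 of another identifier, and peaks that share a gene are counted separately. A peak that spans several exons is assigned to 1 of them, so these numbers depend on width. Measured instead by the middle of the peak along the listed transcript from its 5' end, introns included, the median position was 66.4% of the span for members and 73.9% for all peaks, and 69 of 173 (39.9%) lay beyond 80% of the span, against 44.5%. In 26 of the 173 peaks (15.0%) an edge coincided exactly with an end of the listed transcript, against 11.4% of all.

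**Figure D3:**
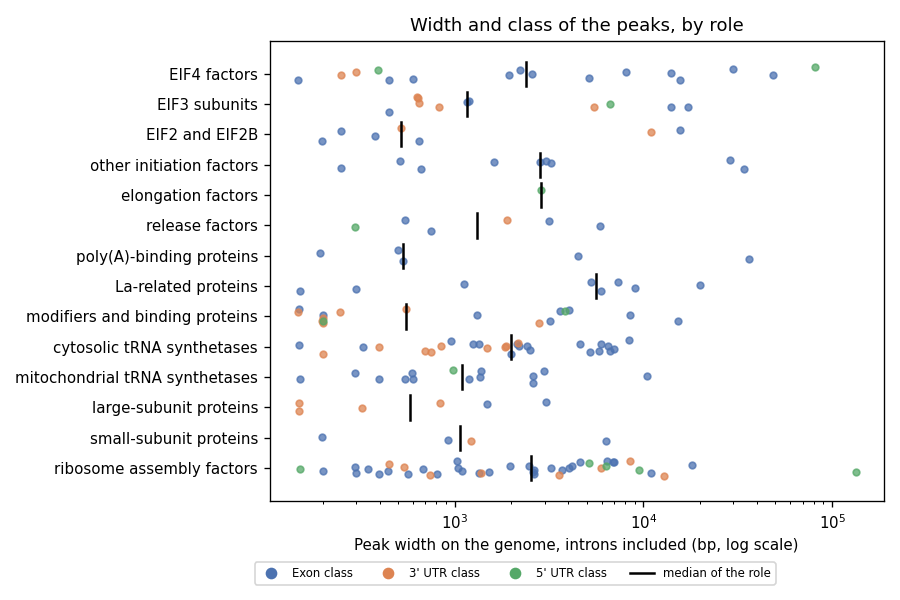
Each point is 1 of the 173 peaks, with its width on the genome in bp (log x axis), its role (y axis) and its class by colour, and vertical lines mark the median of each role. Medians run from 517 bp for EIF2 and EIF2B to 5608 bp for the La-related proteins, and the point at the far right is a 133718 bp peak in the 5' UTR class of *RIOK1*.

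Members with a peak were expressed above the typical gene. Their median FPKM was 14.1 in TES5, 12.7 in TES6 and 12.8 in TES7, and 13.2 by the mean of the animals, against 7.36 for all genes with a peak. Of the 98 identifiers, 91 had an FPKM of at least 1 in every animal, and 2 were listed at 0 in all 3. The median coefficient of variation (SD over mean) was 9.94% over those 91, against 12.2% over the 11402 genes at this level. TES5 had the highest value for 36 of the 91, TES6 for 26 and TES7 for 29. Over the 11402 genes the counts were 4531, 3181 and 3690, a similar split. The median SD between animals of log2(FPKM + 1) over the 98 was 0.127, against 0.145 for all genes with a peak. With 1 animal left out it was 0.0864 without TES5, 0.112 without TES6 and 0.0989 without TES7. These are SDs over 2 animals, whose median tends to lie below that of SDs over 3, so the drop is no result in itself. Across the members, which are not independent replicates and share the libraries, Pearson's r of log2(FPKM + 1) between animals was 0.993, 0.992 and 0.995 (n = 98).

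**Figure D4:**
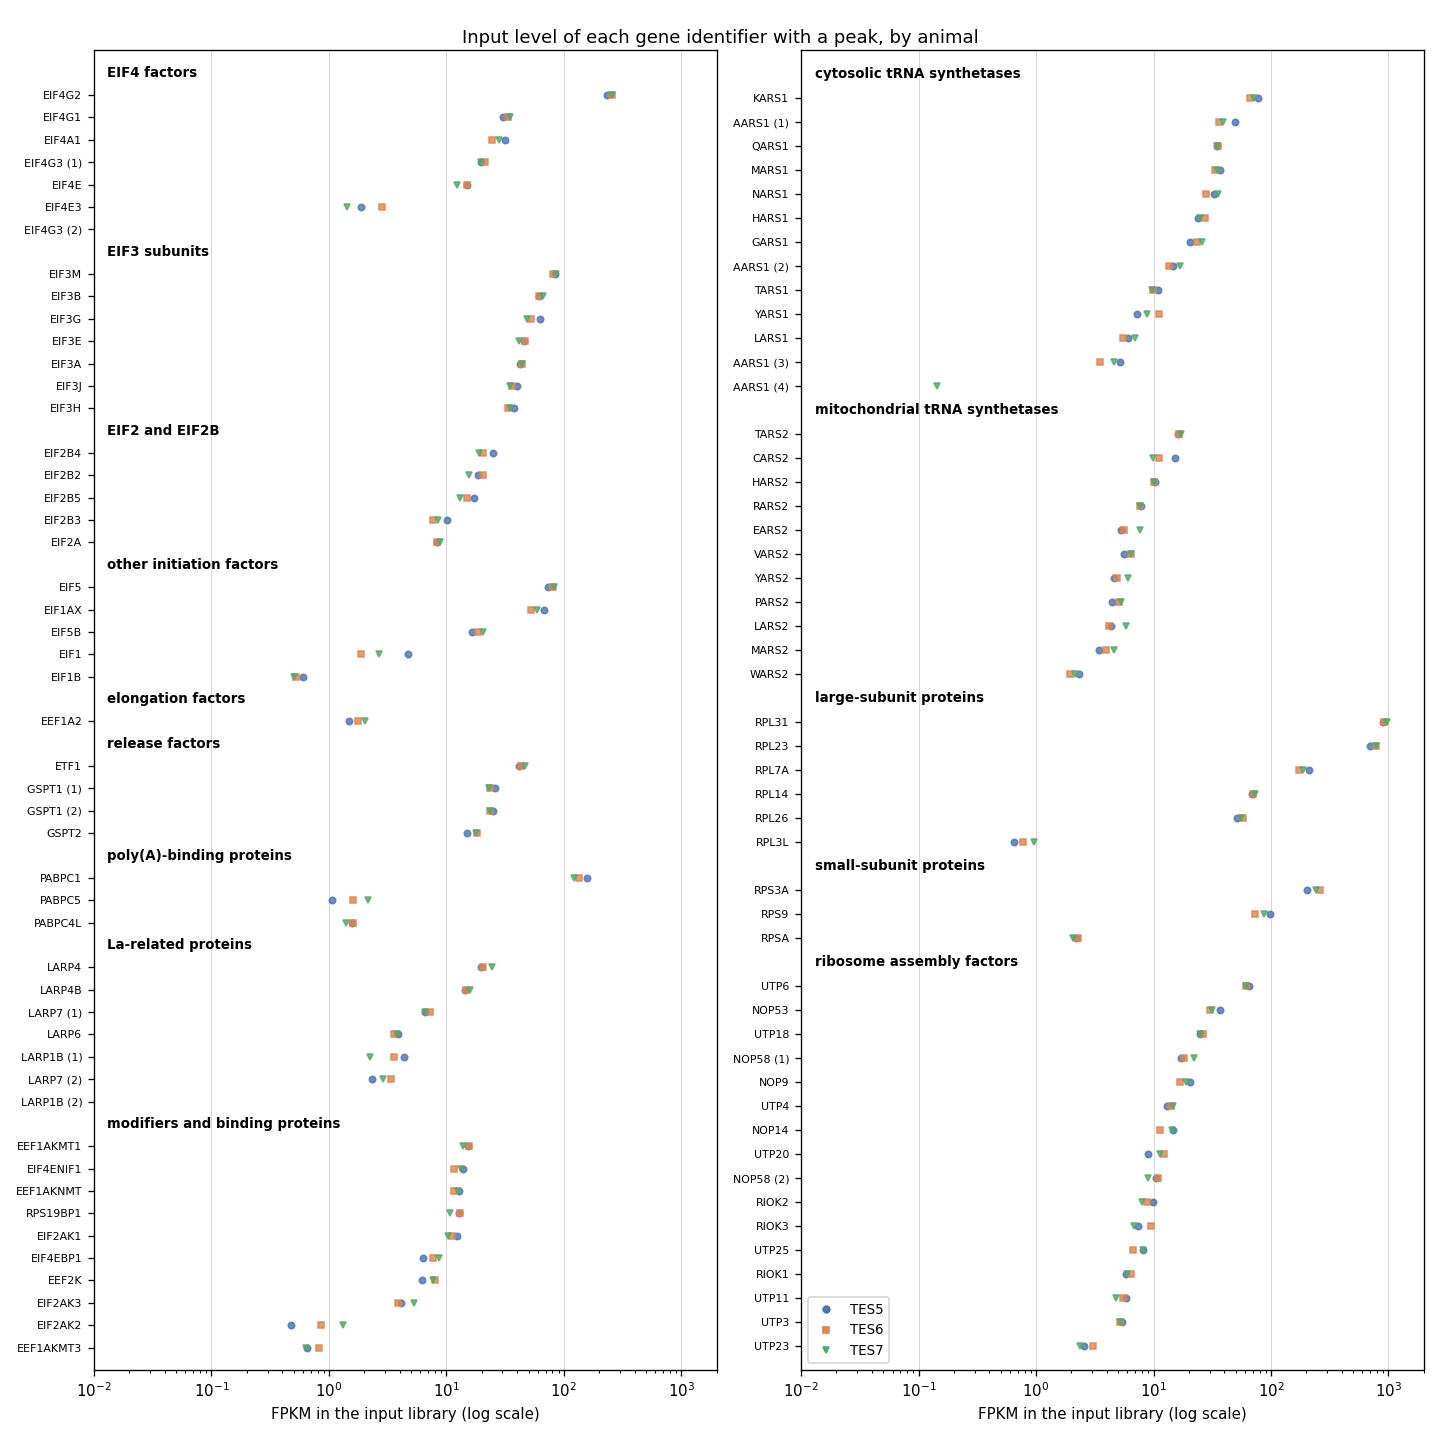
Points give the FPKM of each gene identifier with a peak (rows, grouped by role and ordered by mean) in the input library of each animal on a log x axis; numbers in brackets tell identifiers of 1 symbol apart, and values of 0 are not drawn. The ribosomal proteins *RPL31* and *RPL23* are highest, at means of 929 and 754, and for most genes the spread between animals is small beside the distance between genes.

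Each part of the cap-binding complex had at least 1 gene with a peak, while the relatives *EIF4A2* and *EIF4E2* were not listed. The count for the EIF4 family, 6 of 12 symbols (50%, 25.4% to 74.6%), was near the 45.2% of all RefSeq symbols. *EIF4E*, which binds the mRNA cap, had an FPKM of 15.0, 15.0 and 12.4 in TES5, TES6 and TES7 (mean 14.1 ± 1.51, SD, n = 3). It is listed on the minus strand of chromosome 6 of LU_Bosgru_v3.0, chr6:100735198-100773969, with a 30031 bp peak assigned to exon 2 of 8 and a 5147 bp peak assigned to exon 5. Together these cover most of the gene. *EIF4A1*, the RNA helicase, stood at 31.5, 24.2 and 28.0 (mean 27.9 ± 3.63), and both of its peaks lay at the start of the transcript, a 392 bp peak in the 5' UTR class and a 147 bp peak in exon 1 of 10.

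The scaffold *EIF4G1*, which joins EIF4E to EIF3 and to the poly(A)-binding protein, stood at 30.1, 33.6 and 34.8 (mean 32.8 ± 2.44). Its 4 peaks on the minus strand of chromosome 1 were assigned to exons 10, 25 and 32 of 36 and to the 3' UTR class, with widths of 2554, 1929, 446 and 250 bp in that order. They became narrower towards the 3' end. *EIF4G2*, a scaffold that lacks the EIF4E-binding part and serves cap-independent initiation, was the highest initiation factor with a peak at 231, 256 and 257 (mean 248 ± 14.6), with a 2214 bp peak at exon 3 of 21 and a 598 bp peak at exon 14. *EIF4G3*, a close relative of *EIF4G1*, stood at 19.8, 21.2 and 19.9 (mean 20.3 ± 0.810). Its 381795 bp transcript on chromosome 2 carried peaks of 80895 bp (5' UTR class), 48668 bp, 15577 bp and 301 bp (3' UTR class). A second identifier named *EIF4G3*, a 355 bp model on the opposite strand within that span, is listed at 0 in all 3 animals and lies inside a 14048 bp peak. *EIF4E3*, a cap-binding relative, was low at 1.88, 2.85 and 1.43, with a single 8131 bp peak.

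EIF3 is the large complex that holds the small subunit to the mRNA. Its 7 identifiers had mean FPKM from 35.4 (*EIF3H*) to 83.8 (*EIF3M*), with a median of 44.4 and coefficients of variation from 2.74% (*EIF3A*) to 13.7% (*EIF3G*). *EIF3A*, the core subunit, stood at 42.1, 44.3 and 44.0 (mean 43.5 ± 1.19) with 1 peak of 13927 bp at exon 12 of 22. *EIF3G*, an RNA-binding subunit, was highest in TES5, at 62.9, 52.6 and 48.3 (mean 54.6 ± 7.49), and carried an 824 bp peak in the 3' UTR class. *EIF3H*, known for its contact with the m6A methyltransferase METTL3, stood at 37.3, 33.8 and 35.1 (mean 35.4 ± 1.80). Its peaks were 1195 bp wide at exon 5 of 6 and 5504 bp wide in the 3' UTR class.

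Of the 11 peaks on EIF3 genes, 5 were in the 3' UTR class (45.5%, 21.27% to 71.99%), against 20.8% of all peaks. The share over all peaks lay only just below this wide interval, which does not take into account that several peaks share a gene. The 5 peaks were on *EIF3B*, *EIF3G*, *EIF3H* and, with a pair of neighbouring peaks of 642 and 647 bp, *EIF3J*, the loosely bound subunit. When peaks within 100 bp were merged, this pair became 1 interval, though it counts as 2 of the 5. *EIF3J* stood at 40.1, 36.2 and 34.5 and also carried a 17202 bp peak at exon 2 of 8. *EIF3B* combined a 6617 bp peak in the 5' UTR class with a 629 bp peak in the 3' UTR class. *EIF3E* and *EIF3M* had only exon class peaks, of 1166 bp and 451 bp.

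EIF2B recharges EIF2 with GTP and is the point at which stress kinases slow initiation. Its 4 listed subunits had mean FPKM of 18.1 (*EIF2B2*), 8.76 (*EIF2B3*), 21.4 (*EIF2B4*) and 15.1 (*EIF2B5*), with coefficients of variation from 13.4% to 14.1%. *EIF2B4* stood at 24.8, 20.3 and 19.1, and *EIF2B5*, the catalytic subunit, at 17.2, 15.0 and 13.0. Both were highest in TES5. Of the 5 identifiers of EIF2 with EIF2B, 3 were highest in TES5, 1 in TES6 (*EIF2B2*, at 18.5, 20.3 and 15.5) and 1 in TES7 (*EIF2A*). Their median log2 deviation was 0.19 in TES5 and -0.15 in TES7, while that of all genes at an FPKM of at least 1 was 0.0035 and 0.0061. With 3 animals of 1 group this is a description only. *EIF2A*, which can deliver the initiator tRNA by another route, stood at 8.37, 8.30 and 8.88 (mean 8.52 ± 0.317), near *EIF2B3* at 10.1, 7.67 and 8.52, with peaks of 15666 and 198 bp both assigned to exon 10 of 14. The peaks on *EIF2B2* and *EIF2B4* were narrow, 249 bp in exon 1 of 8 and 376 bp at exon 3 of 13, whereas *EIF2B3* carried 10929 bp in the 3' UTR class. *EIF2B5* and *EIF4G1* lie on the same strand of chromosome 1, 146294 bp apart.

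Among the remaining initiation factors, *EIF5*, which triggers GTP hydrolysis by EIF2, stood at 73.4, 80.3 and 81.6 (mean 78.5 ± 4.41), with a 3049 bp peak at exon 6 of 11 and a 516 bp peak in the last exon. *EIF5B*, which joins the ribosomal subunits, stood at 16.6, 18.7 and 20.4 (mean 18.6 ± 1.89), and its 4 peaks of 34331, 28679, 1612 and 2849 bp covered most of its 78695 bp transcript. *EIF1AX*, an X-linked factor of start codon selection, stood at 67.3, 52.5 and 59.1 (mean 59.6 ± 7.41) with a 3231 bp peak at exon 2 of 7. All 9 peaks of this family were in the exon class. The identifiers named *EIF1* and *EIF1B* span 147973 bp and 246036 bp and were low, at means of 3.10 ± 1.47 and 0.542 ± 0.0488, and the *EIF1B* peak is assigned to exon 10 of 18. Such long models may hold more than the named factor, which was not tested.

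**Figure D5:**
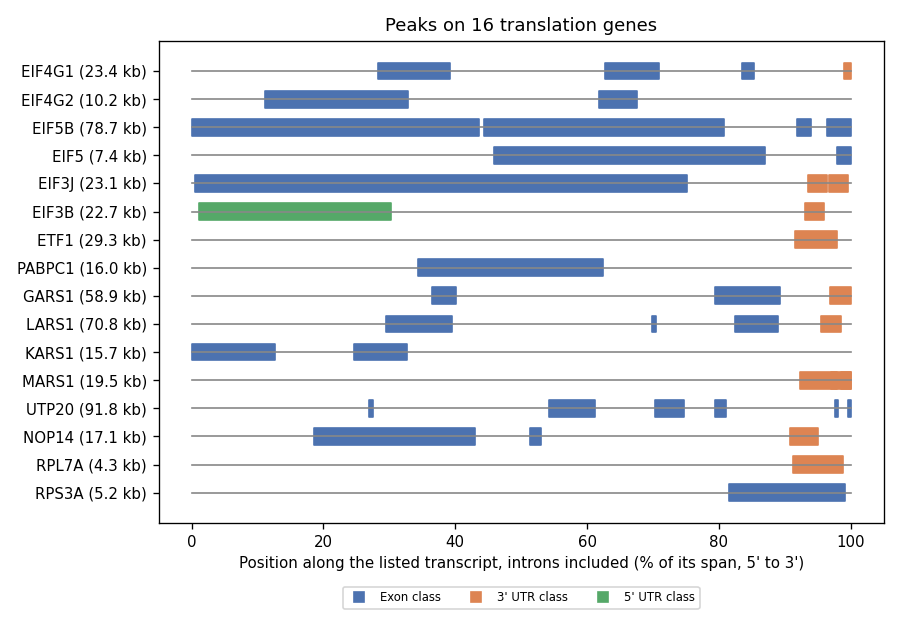
Each grey line is the listed transcript of 1 of 16 translation genes from its 5' end (0%) to its 3' end (100%), introns included, with its span in kb beside the name, and coloured blocks are the m6A peaks by class. The peaks of *MARS1*, *ETF1* and *RPL7A* sit near the 3' end, whereas those of *KARS1* sit in the first part of the gene and those of *EIF5B* cover most of it.

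The release factor *ETF1*, which reads stop codons, stood at 41.5, 43.2 and 46.4 (mean 43.7 ± 2.47), with a single 1889 bp peak in the 3' UTR class. *GSPT1*, the GTPase that works with it, is split over 2 identifiers 13721 bp apart on the plus strand of chromosome 26, with means of 23.9 ± 0.899 and 24.2 ± 1.70, and 3 peaks between them. *GSPT2*, the X-linked relative, stood at 14.9, 18.2 and 18.0 (mean 17.1 ± 1.86), with peaks of 746 bp at exon 2 of 3 and 548 bp in exon 3. The single elongation factor on the list, *EEF1A2*, known from muscle and nerve, was low at 1.49, 1.77 and 2.03 (mean 1.77 ± 0.272), with a 2884 bp peak in the 5' UTR class.

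*PABPC1*, the main protein on poly(A) tails, stood at 159, 136 and 123 (mean 139 ± 18.2), with a 4484 bp peak at exon 3 of 14. Its relatives *PABPC4L* and the X-linked *PABPC5* were far lower, at 1.52 ± 0.111 and 1.61 ± 0.543, and carried 2 peaks each. The *PABPC5* values of 1.06, 1.62 and 2.14 spread more widely between animals than those of most members. All 5 peaks of these genes were in the exon class. The same held for the 8 peaks of the La-related proteins, which bind RNA ends and poly(A) tails. *LARP4*, which protects poly(A) tails, was highest at 19.8, 20.4 and 24.3 (mean 21.5 ± 2.42), and its 9051 bp peak ended exactly at the end of the transcript. *LARP6* stood at 3.90, 3.58 and 3.82, with 151 bp in its last exon and 5971 bp at exon 2 of 4. *LARP1*, the regulator of ribosomal protein mRNAs, was not on the list. A 1569 bp identifier named *LARP1B*, on the opposite strand of the expressed *LARP1B*, is listed at 0 in all animals and lies inside a 19892 bp peak.

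Enzymes and binding proteins that act on translation factors gave 10 identifiers and 17 peaks. Of these peaks, 7 were in the 3' UTR class (41.2%, 21.6% to 64.0%), against 20.8% of all peaks. Several of the peaks share a gene, which the interval does not take into account. Of the 4 kinases that phosphorylate EIF2 under stress, *EIF2AK1*, *EIF2AK2* and *EIF2AK3* were listed. *EIF2AK1*, the heme-regulated kinase, stood at 11.2 ± 0.975 with a 200 bp peak in the 3' UTR class. *EIF2AK3*, the kinase of endoplasmic reticulum stress, stood at 4.09, 3.84 and 5.26 (mean 4.40 ± 0.761), with a 150 bp peak in the last of 16 exons and a 3209 bp peak at exon 12. *EIF2AK2*, which senses double-stranded RNA, was at 0.472, 0.855 and 1.32 and did not pass an FPKM of 1 in every animal. The binding protein *EIF4ENIF1*, which carries EIF4E into the nucleus and into storage granules, stood at 13.8, 11.5 and 13.3 (mean 12.9 ± 1.20). It had 8488 bp at exon 2 of 18 and 3850 bp in the 5' UTR class. *EEF1AKMT1*, a methyltransferase of EEF1A, stood at 15.0 ± 0.895 with 1 peak in each class, of 549 bp (3' UTR), 200 bp (exon) and 200 bp (5' UTR). *EEF2K*, the kinase that stops EEF2, stood at 6.16, 7.99 and 7.74 with a 15216 bp peak.

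The synthetases attach amino acids to tRNAs, and the cytosolic ones with a peak stood higher than the mitochondrial ones. Over 13 cytosolic identifiers there were 27 peaks, 9 of them in the 3' UTR class, and a median FPKM of 23.3. Over 11 mitochondrial identifiers there were 14 peaks, 0 of them in the 3' UTR class, and a median FPKM of 6.15. In every animal the cytosolic median was at least 20.5 and the mitochondrial median at most 6.45, and no test between these groups of genes was made. A single peak was found on 4 of 13 cytosolic and 8 of 11 mitochondrial identifiers.

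*KARS1*, which serves both compartments, was the highest synthetase at 77.2, 66.7 and 71.4 (mean 71.8 ± 5.25), with peaks of 1992 and 1255 bp at exons 1 and 2 of 14. *MARS1*, the methionine enzyme, stood at 34.9 ± 1.72, and its 3 peaks of 200, 1488 and 847 bp lay together in the 3' UTR class. These overlap and merge into 1 interval, though they count as 3 of the 9 cytosolic peaks in that class. *LARS1*, the leucine enzyme, carried the most peaks of any single synthetase identifier (4) at a low level of 6.11, 5.54 and 6.91 (mean 6.19 ± 0.687). *QARS1*, the glutamine enzyme, was nearly identical in the 3 animals at 34.9, 35.1 and 34.8. The symbol *AARS1*, the alanine enzyme, is carried by 4 identifiers within chr20:48797340-48882453, with means of 41.4, 15.0, 4.43 and 0.0483 and 8 peaks in all. They lie on both strands, so which of them is the alanine enzyme is not settled by the symbol. The first of these stood at 49.1, 35.9 and 39.1.

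The mitochondrial synthetases ran from *WARS2* at 2.15 ± 0.179 to *TARS2* at 16.5 ± 0.527. *TARS2*, the threonine enzyme, stood at 16.1, 16.3 and 17.1, and its 983 bp peak was the only one of the family in the 5' UTR class. *CARS2*, the cysteine enzyme, had the highest coefficient of variation of the family (23.9%), at 15.4, 11.1 and 9.82 (mean 12.1 ± 2.89). *RARS2*, the arginine enzyme, stood at 7.87, 7.61 and 7.66 with the widest peak of the family, 10512 bp at exon 8 of 21. *LARS2* stood at 4.38, 4.19 and 5.81, with 2963 bp at exon 3 of 22 and 151 bp at exon 13. The histidine pair *HARS1* (25.5 ± 1.85) and *HARS2* (10.2 ± 0.105) lie head to head on chromosome 8 with 339 bp between them. The 5965 bp peak of *HARS1* covers its start, and the 1197 bp peak of *HARS2* lies at the far end, at exon 11 of 14.

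The 9 ribosomal proteins with a peak carried 10 peaks, split evenly between 3' UTR (5) and exon class (5), with a median width of 876 bp against 1845 bp for the other members. *RPL31* was the highest member of all at 896, 915 and 978 (mean 929 ± 42.8). Its 1480 bp peak is assigned to exon 19 of 20 of another identifier, so it may belong to the neighbouring gene. *RPL23* stood at 698, 782 and 781 (mean 754 ± 48.0), with a 3030 bp peak at exon 3 of 4. *RPS3A*, of the small subunit, was lowest in TES5 at 203, 262 and 244 (mean 236 ± 30.5), with a 919 bp peak at exon 4 of 6. *RPL7A* stood at 211, 173 and 189 (mean 191 ± 19.0), and its 324 bp peak fell in the 3' UTR class, near the end of its transcript at chr9:13828580-13832879 on the plus strand.

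*RPL14* was steady at 69.6, 69.9 and 72.9 (mean 70.8 ± 1.85), with an 833 bp peak in the 3' UTR class, and *RPL26* stood at 54.8 ± 3.10 with a 150 bp peak in the same class. *RPS9* stood at 97.6, 73.8 and 86.8 (mean 86.1 ± 11.9), and it was the only ribosomal protein with 2 peaks. Its listed transcript spans 138131 bp, and its 3' UTR class peak lies at 5.83% of that span from the 5' end. This long model may hold more than the named gene, which was not tested. A pair of identifiers stood far below these. *RPL3L*, the muscle relative of *RPL3*, was at 0.651, 0.772 and 0.963, with 150 bp in the 3' UTR class. The identifier named *RPSA* was at 2.20, 2.26 and 2.07, with a 198 bp peak at exon 1 of 7. Reads shared with copies of ribosomal protein genes make these levels uncertain.

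Ribosome assembly factors held 42 peaks on 16 identifiers, 12 of them on *RIOK1*, with a median FPKM of 10.5. *UTP6*, a part of the small-subunit processome that folds and cuts the ribosomal RNA precursor, was highest at 64.6, 60.9 and 61.7 (mean 62.4 ± 1.94), with 3 peaks of 3253 to 4611 bp. *UTP20*, a large scaffold of the same particle, stood at 8.94, 12.3 and 11.4 (mean 10.9 ± 1.74). It carried 6 peaks, all in the exon class, at exons 20, 29, 39, 44, 59 and 61 of 62. Their widths were 563, 6452, 4042, 1519, 201 and 443 bp. *UTP23* was lowest, at 2.57, 3.04 and 2.35. *NOP14*, another processome part, stood at 13.5 ± 1.78 with 3 peaks. The symbol *NOP58*, a core protein of the box C/D particles that guide ribosomal RNA methylation, is given to 2 identifiers on opposite strands 22981 bp apart, at 19.1 ± 2.60 and 10.1 ± 1.02, and which of them is the named gene is not settled by the symbol.

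*RIOK1*, an atypical kinase of late small-subunit maturation, carried 12 of the 173 peaks at a level of 5.84, 6.40 and 5.98 (mean 6.07 ± 0.289). The peaks are spread over 2 listed transcripts of 1 identifier on the minus strand of chromosome 24, which span 21495 bp and 183148 bp. The longer model may hold more than the named gene, which was not tested, so the 12 peaks may not all belong to *RIOK1*. Of these peaks, 2 are assigned to an exon of another identifier. One peak is 133718 bp wide, lies mostly outside the shorter transcript that it is listed for, and overlaps others. When peaks that overlap or lie within 100 bp were merged, 7 intervals remained. Without *RIOK1*, 161 peaks remained on the members. Its relatives *RIOK2* (8.87 ± 0.973) and *RIOK3* (7.87 ± 1.41) carried 2 peaks and 1 peak.

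A fixed list of other translation genes, which the symbol rule does not catch, was counted as well. Of 71 such symbols named by RefSeq, 50 were listed with a peak, against 45.2% of all RefSeq symbols. Among 24 ribosome assembly genes 20 were listed, from *NOC4L* at 5.76 ± 0.431 to *PES1* at 41.1 ± 2.42. Of the genes for elongation and ribosome rescue 9 of 13 were listed, and of 7 symbols tied to ribosomal proteins 2 were. For initiation and its control the count was 14 of 22, led by the helicase *DDX3X* at 64.5 ± 10.8, and *MTOR*, the kinase that sets the rate of translation, carried 1 peak at 8.40 ± 0.122. *EPRS1*, the bifunctional glutamate and proline enzyme, and the phenylalanine enzyme subunits *FARSA* and *FARSB* were listed as well, at 14.9 ± 0.589, 28.5 ± 0.368 and 33.1 ± 8.89.

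The annotation in the peak list matched the roles only in part. The KEGG pathway for aminoacyl-tRNA biosynthesis was given to 12 of the 24 synthetase identifiers, and the pathway Ribosome to 5 of the 9 ribosomal proteins. The gene ontology term for translation initiation factor activity stood on 14 of the 98 members, against 28 of all 8986 identifiers with a peak. The term RNA-directed DNA polymerase activity, known from mobile elements, stood on 9 of the 98, among them *GARS1*, *RIOK1* and *UTP18*. It stood on 1326 of all 8986, so it was not particular to these genes.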

How the data were processed

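Per the study's methods, Trimmomatic removed low-quality reads and adapters, SortMeRNA removed ribosomal RNA, and HISAT2 (2.0.4 by the submitters' processing notes) aligned the rest to LU_Bosgru_v3.0. The authors called peaks against input with MeTDiff, described as run on each sample, and annotated them with ChIPseeker; the deposited list gives 1 set of intervals. FPKM values of the 3 input libraries were deposited by the authors, and the program that made them is not given in the sources used here.

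Members were found by gene symbol, assigned to 14 roles, and joined to FPKM by gene identifier. Counts, Wilson 95% intervals, medians, means and SDs were computed in Python 3.11.15 (with pandas 2.3.3, numpy 2.4.6, matplotlib 3.10.9 and SciPy 1.17.1) and tested on simulated data. With a single condition, no test was made. Of 90 member symbols, 88 matched RefSeq.

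Members, lists and comparisons were chosen with earlier results of these data known. The counts against RefSeq symbols, the classes of FPKM, the genes on the position plot and the removal of members from the list of other translation genes were chosen after seeing the values. By rule, values per animal were given in each role for the genes of highest and lowest mean FPKM, most peaks, widest peak and highest coefficient of variation (the last at a mean of 10 or more), and for 23 fixed symbols, 12 of them listed. Values of other genes were added after they had been seen.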

Additional observations from a re-analysis of the deposited data

How the results depend on the processing

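No paired analysis was possible because peaks are not given per animal and a single group was measured. The numbers of peaks and genes stayed within 1.5 times their values in the alternatives run. Among peaks of at most 1000 bp, exon peaks made up 57.1% and 3' UTR peaks 35.7%. Weighted by width, 3' UTR peaks held 8.04% and 5' UTR peaks 27.5%. Leaving out *RIOK1*, whose 133718 bp peak is a 5' UTR peak, changed these to 8.44% and 14.2%, with 77.4% for exon peaks (added after seeing the data). Leaving out genes under an FPKM of 1 in any animal gave a median FPKM of 15.0. The median between-animal SD of log2 values, 0.127, became 0.143 with a pseudocount of 0.1. As an SD over 2 animals, with each animal left out, it lay from 0.0864 to 0.112, lowest without TES5. Likewise, the median lay from 43.4 to 46.1 for EIF3 and from 5.46 to 6.43 for mitochondrial synthetases.

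The share of ribosomal proteins with a peak (11.4%) was 10.1% when genes under an FPKM of 1, or peaks assigned to an exon of another identifier, were left out, and 11.1% without paralogs named with a final L, all added after seeing the data. Peak height, depth and the level of genes without a peak are not known from the tables used, which limits every count of peaks.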
